A study of Oryza sativa with 8 samples.

Results

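The auxin genes of rice were followed on 8 one-colour Affymetrix rice arrays, through the members of 5 gene families that carry the auxin response or move and make the hormone. A gene was a member when the array annotation or a synonym of its reference entry named it IAA, GH3, SAUR, YUCCA or PIN with a number, and 42 of the 17905 genes with a one-gene probe set met this rule. They were 26 Aux/IAA, 9 GH3, 1 SAUR, 1 YUCCA and 5 PIN genes, read by 54 of the 57194 probe sets. All 42 names came from synonyms, because the array annotation listed these genes by locus number, and for 6 members 1 of the listed names also belonged to another member (IAA1 with IAA13, IAA4 with IAA20 and IAA5 with IAA8), so these names follow the synonym unique to each locus where there is one. The brightest probe set stood for a gene, and 36 members passed the filter on low signal. The other members, IAA16, IAA20, GH3-11, PIN2, PIN5C and PIN9, had signals of 4.5 to 9.8 on every array and were not tested.

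RNA came from shoots and leaves of 4-leaf-stage seedlings of the cultivar Zhonghua 11 (ZH11). The 4 groups of 2 arrays were OE cold and ZH11 cold, sampled after 24 h in a chamber at 4 °C, and OE normal and ZH11 normal, sampled before the move. OE seedlings carried an OsTMF overexpression construct in ZH11, with line OE-24 as replicate 1 and line OE-29 as replicate 2 at each time, so the spread within OE holds the difference between lines. The promoter of the construct is not given in the sources used here. OsTMF was looked for only in the single name kept for each gene, where it had 0 matches. The other synonyms were not searched for it, and its own level is not given. The cold comparisons also hold a day of growth in the chamber.

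Auxin sets the growth of shoots and roots. Aux/IAA proteins sit on auxin response factors (ARFs) and keep auxin-responsive genes silent, until auxin binds receptors that send the Aux/IAA proteins to degradation. Many Aux/IAA, GH3 and SAUR genes are themselves auxin-responsive. GH3 enzymes join hormones to amino acids, YUCCA enzymes make auxin, and PIN proteins carry it out of cells.

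Signals are probe-set intensities. Changes are differences of log2(signal + 16) with their standard errors from limma, a call is an adjusted p under 0.05 over all 34316 tested probe sets, and a change on this scale understates that of dim probe sets. Array medians ran from 27.2 to 28.2. Leaf marker genes were present, with rbcS at 14113 to 15400 on all arrays, while RBCS1 stayed at 4.6 to 6.1. The summed signal of 8 leaf markers was 23482 to 23723 in OE cold, 23525 to 24554 in ZH11 cold, 47746 to 48779 in OE normal and 48346 to 49427 in ZH11 normal. The 2 root markers summed to 128 to 146 in OE cold, 176.5 to 178 in ZH11 cold, 61.1 to 65.3 in OE normal and 56.2 to 61 in ZH11 normal, with SCR1 carrying that difference and SHR1 at 19 to 23.6. For 3 meristem markers the sums were 192 to 205.5 in OE cold, 204.5 to 206 in ZH11 cold, 309 to 323 in OE normal and 334 to 345 in ZH11 normal, with the defining gene OSH1 at 4.4 to 7.3. The 6 seed storage markers, matched by name, summed to 1065 to 1165 in OE cold and 991 to 995 in ZH11 cold. Their sums were 1920.1 to 2075 in OE normal and 2006 to 2202 in ZH11 normal. Of these 6 genes 3 were tested, and whether each is a seed storage gene was not checked. On the cold arrays the leaf sum is mostly rbcS. These sums moved with cold, and the part of cell makeup in the results was not tested. In bulk seedlings, fewer cells of a type and less RNA per cell cannot be told apart.

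After a day of chilling, Aux/IAA repressor genes were mostly higher in both genotypes, led by IAA23, IAA19 and IAA6, while IAA5, IAA30 and IAA13 were lower. In OE, 13 of the 24 tested Aux/IAA genes rose, 3 fell and 8 did not pass. In ZH11, 16 rose, 3 fell and 5 did not pass. Over the 36 tested members 18 rose and 4 fell in OE, and 20 rose and 4 fell in ZH11. Of all 15841 tested genes 67.3% were called in OE (25.6% higher and 41.7% lower) and 71% in ZH11 (25.7% higher and 45.2% lower), so members were called about as often as other genes, at 61.1% in OE and 66.7% in ZH11. The median change of the members was 0.33 in OE and 0.37 in ZH11, beside -0.14 and -0.18 for all tested genes. These all-gene medians depend on scaling. With arrays centred on the tested probe sets they were 0.02 in both genotypes. Within a genotype that centring moved the change of every gene by the same amount, so the gap between members and all genes stayed. With it, 23 members rose and 4 fell in OE, and 27 rose and 3 fell in ZH11. The share of higher calls among all called genes was 38.0% in OE and 36.3% in ZH11, and 50.9% and 51.2% after that centring. How many of all tested genes were called after it was not counted.

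**Figure D1:**
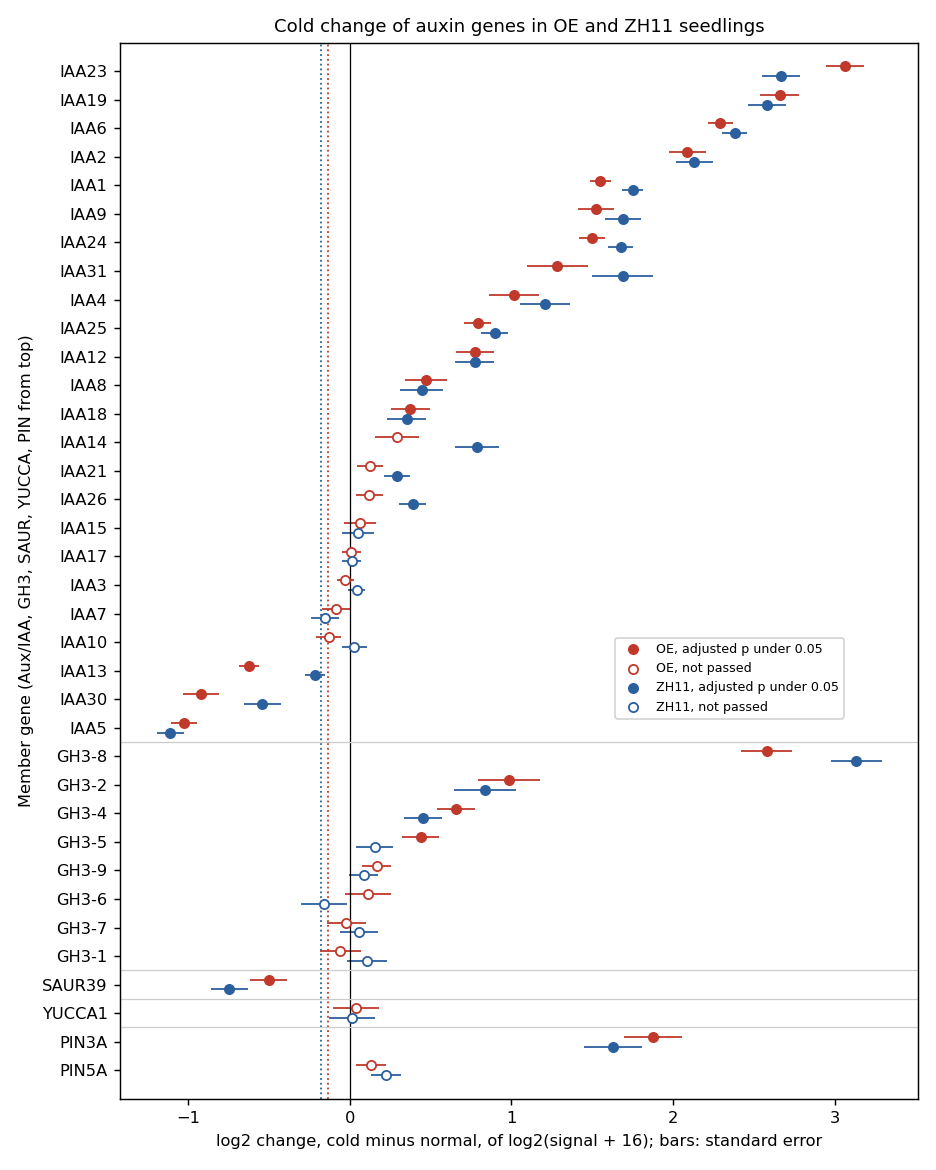
Cold change of the 36 tested auxin genes on the log2(signal + 16) scale (x axis), in OE (red) and ZH11 (blue), with the genes grouped by family down the y axis. Filled points passed the adjusted p threshold of 0.05, bars are standard errors and dotted lines are the medians of all tested genes. IAA23 and GH3-8 lie furthest right and IAA5 furthest left in ZH11.

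IAA23, a repressor required for the root stem cell niche in rice, had signals of 1378 and 1270 in OE cold against 126 and 165 in OE normal, and 1085 and 1099.6 in ZH11 cold against 148 and 169 in ZH11 normal. Its change was 3.07 ± 0.12 in OE (limma adjusted p = 1.02e-08) and 2.67 ± 0.12 in ZH11 (adjusted p = 2.25e-08). Cold and normal arrays stood well apart, a 9.12-fold ratio of mean signals in OE and 6.90-fold in ZH11. IAA19 had signals of 942 and 938 in OE cold against 118 and 154 in OE normal, and 786 and 838 in ZH11 cold against 114 and 131 in ZH11 normal. That gave 2.66 ± 0.12 in OE (adjusted p = 2.88e-08) and 2.58 ± 0.12 in ZH11 (adjusted p = 2.92e-08). The groups did not overlap for IAA19 in either genotype. IAA6, known in rice for roles in drought tolerance and tillering, rose by 2.29 ± 0.08 in OE (adjusted p = 3.77e-09) and by 2.38 ± 0.08 in ZH11 (adjusted p = 2.92e-09). IAA2 rose by 2.09 in OE and 2.13 in ZH11, IAA1 by 1.55 and 1.75, IAA9 by 1.52 and 1.69, IAA24 by 1.5 and 1.68, IAA31 by 1.28 and 1.69, and IAA4 by 1.02 and 1.21. Smaller rises in both genotypes were those of IAA25 (0.79 and 0.90), IAA12 (0.77 in each), IAA8 (0.47 and 0.44) and IAA18 (0.37 and 0.35).

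IAA14, IAA26 and IAA21 passed in ZH11, at 0.79, 0.39 and 0.29, and had 0.29, 0.12 and 0.12 in OE without passing. With arrays centred on the tested probe sets they passed in OE too (limma adjusted p = 0.0259, 0.0253 and 0.0211). The difference in cold change between the genotypes did not pass for any of them (adjusted p = 0.285, 0.336 and 0.558). Without ZH11 normal replicate 1 or ZH11 cold replicate 1, IAA21 lost its call in ZH11 (adjusted p = 0.0933 and 0.0874). IAA18 lost its ZH11 call when ZH11 normal replicate 1, ZH11 cold replicate 1 or ZH11 cold replicate 2 was left out (0.165, 0.11 and 0.076), and its OE call without OE normal replicate 1 or OE cold replicate 1 (0.0987 and 0.18). IAA8 lost its OE call without OE normal replicate 2 or OE cold replicate 2 (0.0673 and 0.0725), and its ZH11 call without ZH11 normal replicate 2 or ZH11 cold replicate 2 (0.0743 and 0.1).

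The lowered Aux/IAA genes were the same 3 in both genotypes. IAA5 had signals of 773 and 898 in OE cold against 1780 and 1652 in OE normal, and 795 and 833.5 in ZH11 cold against 1749 and 1809 in ZH11 normal. Its change was -1.03 ± 0.08 in OE (limma adjusted p = 2.05e-06) and -1.11 ± 0.08 in ZH11 (adjusted p = 9.58e-07). IAA5 was the 1 member that fell by 2-fold or more, and it did so in both genotypes. IAA30 fell by 0.92 in OE and by 0.54 in ZH11. IAA13, known in rice for a part in lateral root initiation, fell by 0.62 in OE and by 0.21 in ZH11. The ZH11 fall of IAA13 was lost without ZH11 normal replicate 2 or ZH11 cold replicate 2 (adjusted p = 0.0599 and 0.0906), and with arrays centred on the tested probe sets it became -0.02 (adjusted p = 0.817). IAA3, IAA7, IAA10, IAA15 and IAA17 passed in neither genotype, with changes of -0.16 to 0.07. With arrays centred on the tested probe sets, IAA3, IAA10, IAA15 and IAA17 passed as higher in ZH11 (limma adjusted p = 0.0062 to 0.0425). With probe sets averaged per gene, IAA3 rose by 0.44 in OE and 0.53 in ZH11 (adjusted p = 0.000336 and 9.45e-05).

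Among hormone-conjugating enzymes, GH3-8 had the largest cold change. GH3-8, which joins auxin to aspartate, had signals of 591 and 613 in OE cold against 69.8 and 108.5 in OE normal, and 440.4 and 516 in ZH11 cold against 42.4 and 37.9 in ZH11 normal. It rose by 2.58 ± 0.16 in OE (limma adjusted p = 2.83e-07) and by 3.14 ± 0.16 in ZH11 (adjusted p = 5.99e-08). The ratio of mean signals was 6.75 in OE and 11.9 in ZH11, and the difference between these changes was -0.56 ± 0.23 (adjusted p = 0.308). GH3-2, another auxin-conjugating enzyme of this family, had dim signals of 61.6 and 43.5 in OE cold against 11.4 and 27 in OE normal, and 47 and 52.8 in ZH11 cold against 22.6 and 19.3 in ZH11 normal. It rose by 0.99 ± 0.19 in OE (adjusted p = 0.00124) and by 0.83 ± 0.19 in ZH11 (adjusted p = 0.0033). The signals of GH3-4 were also dim, at 44.9 and 34.8 in OE cold against 16.7 and 22 in OE normal, and 43.5 and 38.7 in ZH11 cold against 24.2 and 27.1 in ZH11 normal, and it rose by 0.66 in OE and 0.45 in ZH11. The ZH11 call of GH3-4 was lost without ZH11 normal replicate 1 or ZH11 cold replicate 1 (adjusted p = 0.0504 and 0.0507). GH3-5, also named JAR1, an enzyme that joins jasmonate rather than auxin to an amino acid, had signals of 769 and 727 in OE cold against 485 and 618 in OE normal, and 609.7 and 671 in ZH11 cold against 605 and 544 in ZH11 normal. It rose in OE, by 0.44 ± 0.11 (adjusted p = 0.00708), and had 0.15 ± 0.11 in ZH11 (adjusted p = 0.266), and the difference between genotypes was 0.29 ± 0.16 (adjusted p = 0.465). Of 8 tested GH3 genes 4 rose and 0 fell in OE, and 3 rose and 0 fell in ZH11 (limma, with 0 falls at an unadjusted p under 0.05 too). That was 50% called in OE and 37.5% in ZH11, beside 67.3% and 71% of all tested genes (25.6% and 25.7% higher). The other GH3 genes, GH3-1, GH3-6, GH3-7 and GH3-9, had -0.16 to 0.16. With arrays centred on the tested probe sets, GH3-9 passed as higher in OE and in ZH11 (limma adjusted p = 0.0288 and 0.0392). GH3-5 then passed in ZH11 too (adjusted p = 0.00897). Without OE normal replicate 1, GH3-9 passed in OE (adjusted p = 0.0434), and without ZH11 normal replicate 2, GH3-1 passed in ZH11 (adjusted p = 0.0419).

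**Figure D2:**
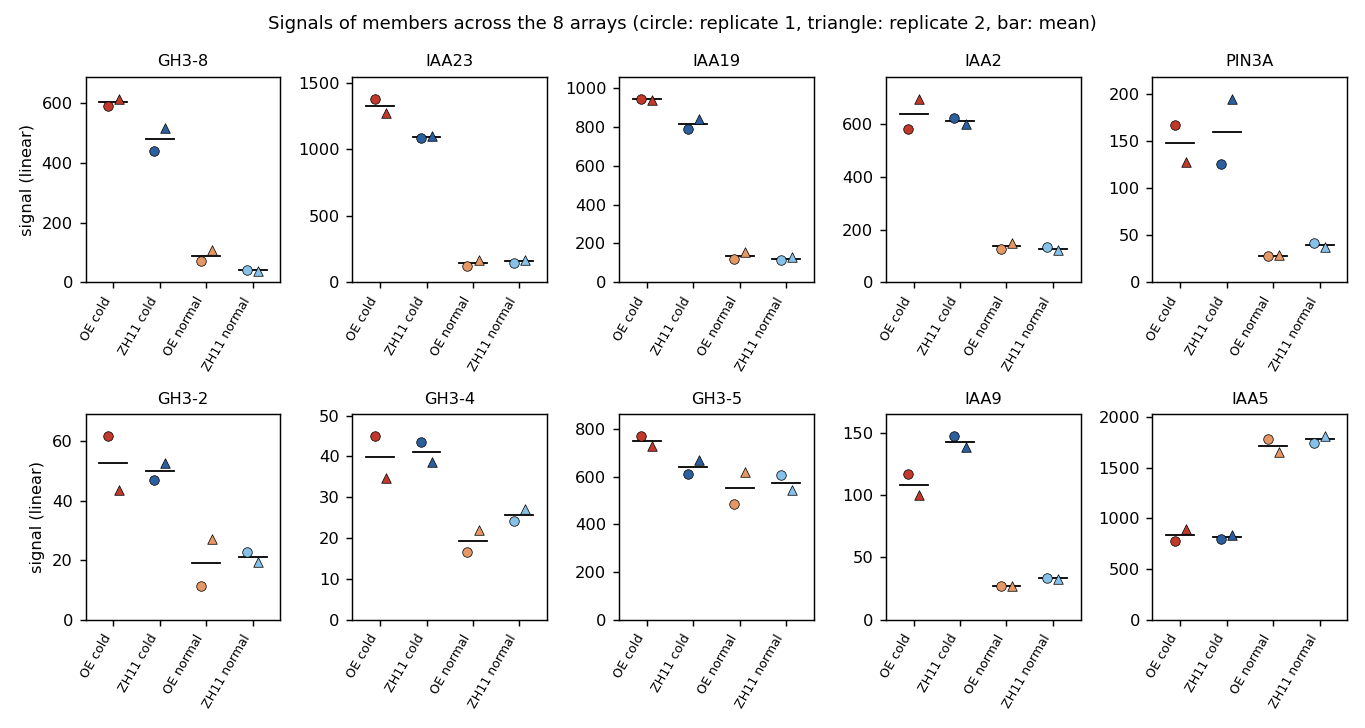
Linear probe-set signal (y axis) of 10 members on each of the 8 arrays, by group (x axis). Circles are replicate 1, triangles replicate 2 and bars the mean of 2 arrays. GH3-8 lies at 440.4 to 613 on the cold arrays and at 37.9 to 108.5 on the normal arrays, and IAA5 is lower on cold arrays.

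SAUR39, a negative regulator of auxin synthesis and transport in rice, was lower after cold in both genotypes. Its signals were 335 and 389 in OE cold against 575 and 467 in OE normal, and 576 and 511.5 in ZH11 cold against 955 and 890.5 in ZH11 normal. It fell by 0.50 ± 0.11 in OE (limma adjusted p = 0.00339) and by 0.75 ± 0.11 in ZH11 (adjusted p = 0.000216). The synthesis gene YUCCA1 had 49 and 62.7 in OE cold against 46.7 and 61.3 in OE normal, and 46.3 and 47.8 in ZH11 cold against 41.7 and 51.9 in ZH11 normal. Its groups overlapped, and its changes of 0.04 ± 0.14 and 0.01 ± 0.14 did not pass. Among efflux carriers PIN3A, known in rice for auxin transport and drought tolerance, had 167 and 128 in OE cold against 27.9 and 28.5 in OE normal, and 125 and 194.5 in ZH11 cold against 41.5 and 38 in ZH11 normal. It rose by 1.88 ± 0.18 in OE (adjusted p = 7.31e-06) and by 1.63 ± 0.18 in ZH11 (adjusted p = 1.84e-05). These values come from a probe set of suffix x, a design that can hybridise with related transcripts. The other PIN3A probe set, of about the same brightness, rose less, by 1.17 ± 0.11 in OE (adjusted p = 7.53e-06) and by 1.24 ± 0.11 in ZH11 (adjusted p = 4.05e-06), a 2.67-fold ratio of mean signals in OE and 2.79-fold in ZH11, beside 5.23-fold and 4.02-fold. PIN5A had 0.13 in OE and 0.22 ± 0.09 in ZH11 (adjusted p = 0.262 and 0.0568). The ZH11 change of PIN5A passed in 7 of 19 alternatives, with adjusted p of 0.00106 to 0.0498, among them the OE line as a replicate block (0.0304) and the fits without OE normal replicate 1 or 2 (0.0258 and 0.0261). Its OE change passed with arrays centred on the tested probe sets (0.0116).

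The 2 cold comparisons share no arrays. Of the members that rose, 17 did so in both genotypes, which is 94.4% of those called in OE and 85% of those called in ZH11. All 4 members that fell in OE also fell in ZH11. Over all tested genes the rises shared by both genotypes were 87.4% of those in OE and 86.8% of those in ZH11, and the shared falls 91.9% and 84.8%, so sharing was common to cold calls at large.

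After cold, 9 Aux/IAA repressor genes and SAUR39 were lower in OE than in ZH11, and none of the 36 tested members was higher. IAA31 stood furthest apart, followed by IAA14 and IAA30. Limma called 17.9% of all tested genes in this comparison, 11.4% higher and 6.53% lower. At an unadjusted p under 0.05, 1 member was higher and 14 were lower. The share of all tested genes at that unadjusted threshold was not counted. The median difference was -0.21 over Aux/IAA and -0.08 over the members, beside 0.06 over all tested genes. The share of higher calls among all called genes was 63.6%, and it was 54.1% after quantile normalization and 48.6% with arrays centred on the tested probe sets. Under those scalings 11 and 12 members were lower and 0 higher. The share of all tested genes called lower under them was not counted. Of the 7 tested leaf markers 2 were also higher in OE after cold, PORB by 0.50 (limma adjusted p = 0.0158) and RCABP69 by 0.49 (0.0337), and the root marker SCR1 was lower, at -0.40 (0.0447). The part of these markers in the Aux/IAA differences was not tested.

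IAA31 had signals of 589.5 and 713 in OE cold against 1393 and 1480 in ZH11 cold, and 337 and 195 in OE normal against 442 and 427 in ZH11 normal. The OE arrays lay below the ZH11 arrays in both treatments. After cold the difference was -1.13 ± 0.19 (limma adjusted p = 0.0046), a ratio of mean signals of 0.453. IAA14 was dim, with 28.7 and 25.2 in OE cold against 55.2 and 74.2 in ZH11 cold, and 21.9 and 16.3 in OE normal against 27.2 and 33.9 in ZH11 normal. Its difference after cold was -0.90 ± 0.14 (adjusted p = 0.00269), and -1.22 and -0.50 with a pseudocount of 1 and of 64. The OE arrays were again the lower ones in both treatments. IAA30 had 465 and 374 in OE cold against 671 and 698 in ZH11 cold, and 875 and 739.5 in OE normal against 1049 and 961 in ZH11 normal, and differed by -0.69 ± 0.11 after cold (adjusted p = 0.00397). IAA13 had 1669 and 1693 in OE cold against 2537 and 2397 in ZH11 cold, and differed by -0.55 ± 0.06 (adjusted p = 0.000488).

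The remaining members of this group had smaller differences. IAA8 differed by -0.47 (adjusted p = 0.0407), IAA24 by -0.47 (0.00464), IAA1 by -0.44 (0.00258), IAA6 by -0.42 (0.00641) and IAA10 by -0.26 (0.0489). IAA10, the target of a viral protein in dwarf-virus-infected rice, and IAA8 stood near the threshold. Outside the threshold, IAA3 had -0.18 (0.0579) and IAA9 -0.36 (0.0602). IAA24 had signals of 1644 and 1618 in OE cold against 2233 and 2288 in ZH11 cold, and IAA1 had 2509 and 2356 in OE cold against 3315 and 3273 in ZH11 cold. Both rose strongly with cold in each genotype, so their OE cold arrays lay above the normal arrays and below the ZH11 cold arrays. SAUR39 differed by -0.57 ± 0.11 (adjusted p = 0.0112). The number of lower members was 6 without ZH11 cold replicate 2 and 6 without OE cold replicate 1. IAA1, IAA13, IAA30 and IAA31 were called in all 19 alternatives, and IAA14 in the 18 that tested it. IAA24 was called in 18, its exception being the fit without ZH11 cold replicate 2 (adjusted p = 0.0529). IAA6 and SAUR39 were called in 17 each, IAA8 in 12 and IAA10 in 8. Leaving out any 1 of the ZH11 arrays or of the OE cold arrays ended the calls of IAA8 and IAA10 (adjusted p = 0.0613 to 0.224 and 0.0558 to 0.292). IAA9, outside the threshold, passed as lower in 8 alternatives, as many as IAA10, with adjusted p of 0.03 to 0.0471, and IAA3 in 4. Both did so without OE normal replicate 1 or 2, and without OE cold replicate 2 IAA4 did (-0.63, adjusted p = 0.0356). IAA6 was lost without ZH11 cold replicate 2 or OE cold replicate 1 (0.0785 and 0.0558), and SAUR39 without ZH11 cold replicate 1 or OE cold replicate 1 (0.114 and 0.079).

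**Figure D3:**
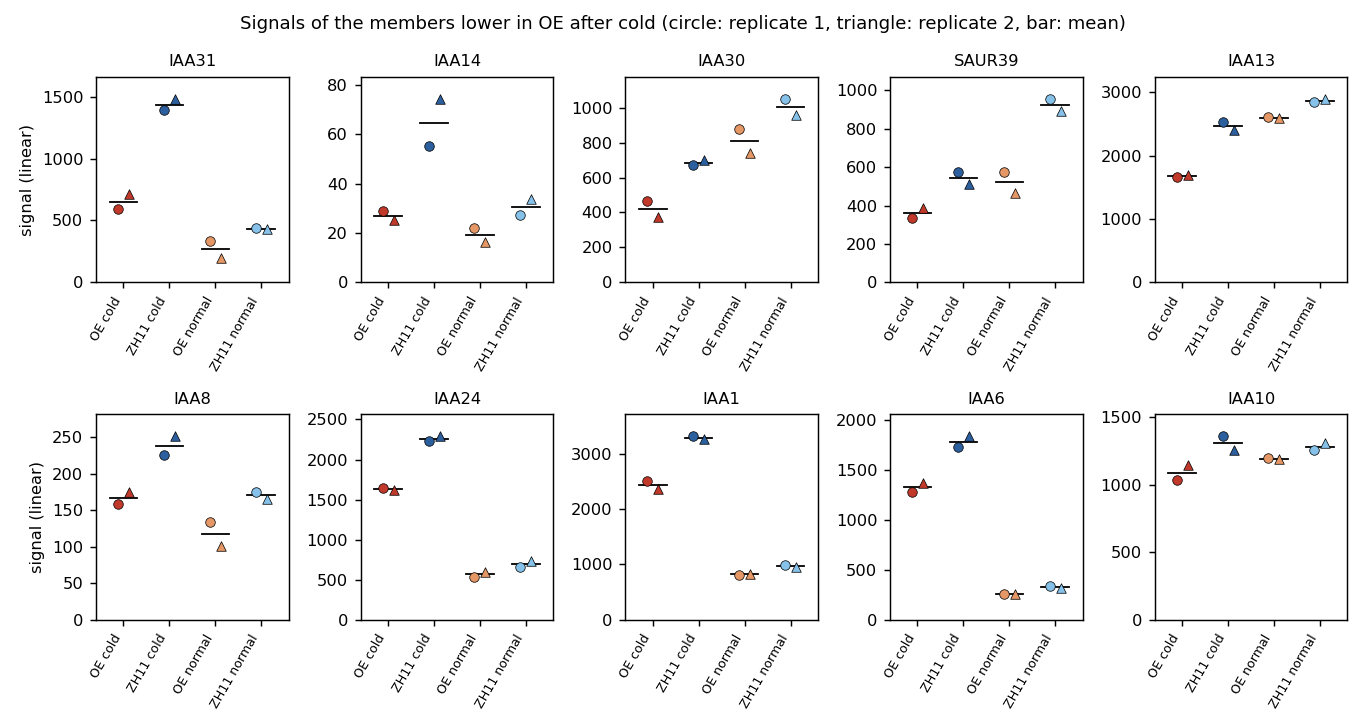
Linear probe-set signal (y axis) of the 10 members called lower in OE after cold, on each array by group (x axis). Circles are replicate 1 (line OE-24 in OE), triangles replicate 2 (line OE-29 in OE) and bars the mean of 2 arrays. IAA31 lies at 589.5 and 713 in OE cold, against 1393 and 1480 in ZH11 cold.

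The GH3, YUCCA and PIN members did not pass after cold. GH3 genes lay between -0.22 and 0.33, with GH3-8 at 0.33 ± 0.16 (adjusted p = 0.208), and at an unadjusted p under 0.05 limma gave 0 of 8. YUCCA1 had 0.18 ± 0.14, PIN3A -0.09 ± 0.18 and PIN5A -0.06 ± 0.09. Among Aux/IAA genes with strong cold rises, IAA19 (0.21 ± 0.12), IAA2 (0.05 ± 0.11) and IAA23 (0.27 ± 0.12) did not pass. IAA23 passed without OE normal replicate 1 (adjusted p = 0.0495) and when all its probe sets were averaged (0.37, adjusted p = 0.0326).

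Before cold, 2 members passed, GH3-8 higher and SAUR39 lower in OE. In this comparison 1.5% of all tested genes were called, 0.953% higher and 0.549% lower. GH3-8 had 69.8 and 108.5 in OE normal against 42.4 and 37.9 in ZH11 normal, a difference of 0.88 ± 0.16 (limma adjusted p = 0.0283). The OE arrays did not overlap those of ZH11, and the OE-29 array was the higher. The call was lost without ZH11 normal replicate 1 or 2 (0.125 and 0.167), without OE normal replicate 2 (0.0944), without ZH11 cold replicate 1 or 2 (0.0619 and 0.0627) and with a pseudocount of 64 (0.0753). SAUR39 differed by -0.81 ± 0.11 (adjusted p = 0.00756), and its call was lost when ZH11 normal replicate 1 was left out (0.0821) and when OE normal replicate 2 was (0.0522). Of the 24 Aux/IAA genes 0 passed, while limma gave 0 higher and 8 lower at an unadjusted p under 0.05. The shares of all tested genes above are at the adjusted threshold and were not counted at the unadjusted one. Over the members 28 of 36 differences were negative, with a median of -0.10, beside 48.4% of all tested genes and a median of 0.01. Without OE normal replicate 1 IAA31 (-1.09, adjusted p = 0.00316) and IAA8 (-0.68, adjusted p = 0.0245) also passed.

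**Figure D4:**
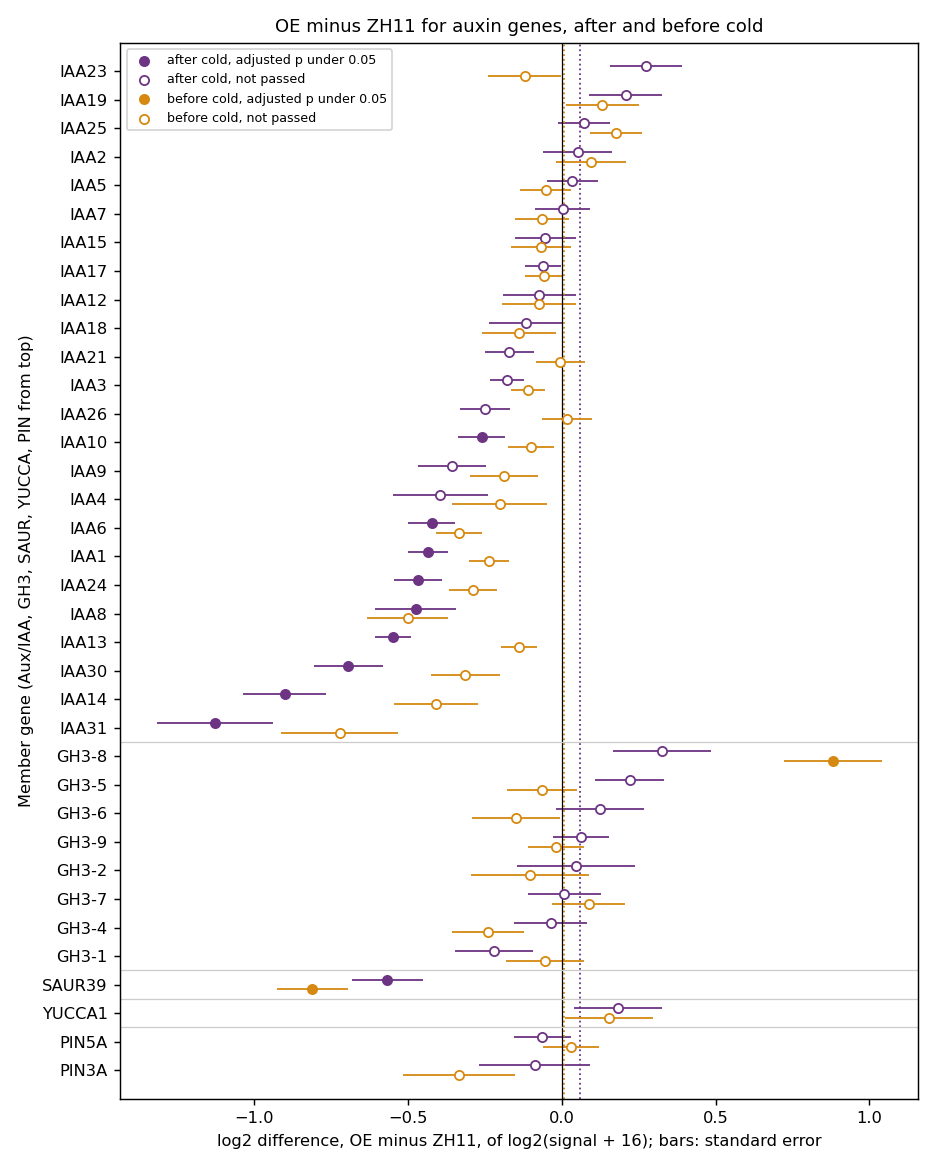
Difference between OE and ZH11 for the 36 tested auxin genes on the log2(signal + 16) scale (x axis), after cold (purple) and before cold (orange), grouped by family down the y axis. Filled points passed the adjusted p threshold of 0.05, bars are standard errors and dotted lines are the medians of all tested genes. IAA31 lies furthest left after cold, and most Aux/IAA points before cold lie left of 0 and are open.

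The 10 members lower in OE after cold had differences of -0.81 to -0.10 before cold, all 10 negative. After cold the range was -1.13 to -0.26. The 2 comparisons use different arrays of the same OE lines. The change with cold itself (OE minus ZH11) differed for 0 of the 36 members in limma. Of all tested genes 1.54% were called, 1.04% higher and 0.505% lower. At an unadjusted p under 0.05, 1 member was higher and 5 lower, without a count over all genes at that threshold. Higher calls were 67.2% of all calls for this interaction, and 56.1% with arrays centred on the tested probe sets. Among the 10, this interaction ran from -0.49 for IAA14 to 0.24 for SAUR39. IAA13 was nearest to the threshold, at -0.41 ± 0.08 (adjusted p = 0.054), and passed after quantile normalization (0.0427), with a filter at the 60th percentile (0.0453) and with probe sets averaged per gene (0.0365). IAA31 had -0.41 ± 0.27 (adjusted p = 0.548), and -0.78 without OE normal replicate 2 (adjusted p = 0.0466).

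With a line term within OE over both treatments (3 residual degrees of freedom), limma called 0 of the 36 members different between OE-24 and OE-29. The lowest adjusted p was 0.408, and 0.227% of all tested genes were called. At an unadjusted p under 0.05 there were 4 members, and all genes were not counted at that threshold. The median absolute log2 difference between OE-24 and OE-29 over the 36 members was 0.13 in cold and 0.15 before it, beside 0.08 between the ZH11 cold arrays and 0.10 between the ZH11 normal arrays. At a single time each line has 1 array, and before cold IAA31 differed most between them, with 337 in OE-24 and 195 in OE-29. IAA4 differed most in cold, at 71.6 in OE-24 and 105 in OE-29.

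IAA30 and IAA31 are neighbours in the reference order of protein-coding genes, with 0 such genes between them. They moved in opposite directions with cold in both genotypes, IAA30 down and IAA31 up, and both were lower in OE after cold. A second probe set of IAA31 stayed at 8.4 to 9.8 on all arrays and was not tested.

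Several probe sets were measured for 9 members, and they did not always tell the same story. The 3 probe sets of IAA23 all rose, by 1.43 to 2.83 in ZH11 and by 1.63 to 3.58 in OE. The brightest is of suffix x, as are the probe sets used for PIN3A, YUCCA1 and the untested GH3-11. The third probe set was at 249 and 237 in OE cold against 149.6 and 133 in ZH11 cold, with 4.4 to 7 on the normal arrays, and it was higher in OE after cold by 0.72 ± 0.11 (limma adjusted p = 0.00286). The dimmer probe set of IAA1 was at 49.4 and 60.7 in OE cold against 95.4 and 108 in ZH11 cold, a difference of -0.73 ± 0.12 (adjusted p = 0.00357). It pointed the same way as the brighter one. For IAA3 the brighter probe set did not pass with cold, whereas the dimmer one rose by 0.91 in OE and 1.01 in ZH11. Cross-hybridisation among Aux/IAA genes is uncertain here.

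Transcripts of the ARF genes, whose proteins Aux/IAA repressors bind, were called with cold about as often as those of other genes. Of 17 ARF genes 16 were tested, and 68.8% were called in OE and 75% in ZH11, beside 67.3% and 71% of all tested genes. In OE 9 rose and 2 fell, and in ZH11 11 rose and 1 fell, with medians of 0.41 and 0.46, beside -0.14 and -0.18 for all tested genes. ARF10 rose most in OE, by 1.46, at 431 in OE cold against 145 in OE normal, and ARF9 rose most in ZH11, by 1.29, at 2892.5 in ZH11 cold against 1173 in ZH11 normal. ARF2 had the largest falls, with -0.33 in OE and -0.49 in ZH11. After cold 2 ARF genes were lower in OE and 0 higher, with ARF23 at -0.38 (limma adjusted p = 0.00653) and ARF17 at -0.38 (adjusted p = 0.0333), and before cold 0 passed. Of 3 genes matched to corepressors by name alone, 2 were tested. The other, ASP1, had signals of 4.6 to 12.1, and whether it is a corepressor gene was not checked. TPR3 rose in both genotypes, by 0.27 in OE and 0.38 in ZH11, while TPR2 rose by 0.22 in OE and did not pass in ZH11.

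Among genes of auxin synthesis and turnover outside the YUCCA and GH3 families, DAO and ILL5 had the largest cold changes, in opposite directions. Of 9 tested, 4 rose and 2 fell in OE (66.7% called, beside 67.3% of all tested genes), and 4 rose and 4 fell in ZH11 (88.9%, beside 71%). With 9 genes these shares are a description. The list was made by name and holds NAL1, whose part in auxin synthesis or turnover was not checked. DAO, an enzyme that oxidises auxin and so inactivates it, rose most, by 1.62 in OE (limma adjusted p = 2.78e-07) and 1.75 in ZH11 (adjusted p = 1.36e-07). Its mean signals were 590.1 in OE cold against 182 in OE normal, and 689 in ZH11 cold against 193.5 in ZH11 normal. ILL5, named after hydrolases that free auxin from amino acid conjugates, had the largest falls, with -1.64 in OE (adjusted p = 4.55e-08) and -1.77 in ZH11 (adjusted p = 2.25e-08). FIB, an aminotransferase upstream of YUCCA in auxin synthesis, rose by 0.78 in OE and by 0.75 in ZH11. None of the 9 passed between OE and ZH11, before or after cold. The kinase gene PID, whose product acts on PIN proteins, was dim and rose by 0.34 in OE and by 0.69 in ZH11.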

How the data were processed

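The authors deposited probe-set signals as linear intensity values, 1 column per array. How probes were summarised and arrays scaled is not given in the sources used here, and per the labels biotinylated cRNA was prepared by a standard Affymetrix procedure. All 8 arrays were used and 0 columns were left out. Of the probe sets, 22436 had 1 gene, 95 several and 34663 none. Gene names were looked up by gene ID among RefSeq synonyms (assembly ASM3414082v1). No sequences are printed, since promoter and protein sequences were not analysed here.

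Signals were taken to log2 after adding 16, and probe sets whose mean log2 value lay above the 40th percentile (a signal of 17.45) were tested. A group-means model over 4 groups was fitted in R 4.3.3 by lmFit and trended eBayes of limma 3.58.1, leaving 4 residual degrees of freedom. Tests were two-sided, with Benjamini-Hochberg adjustment over all tested probe sets. Few arrays limit the precision. The members and lists were chosen with earlier results of these data known. Members named by rule were, per family and comparison, the 3 largest rises and 3 largest falls past the threshold, and members whose probe sets differed by 1 or more on the log2 scale. From each other auxin list it was the largest rise and fall, and the 5 named genes most like the members lower in OE after cold. Other genes were named after their values were seen. The labels do not say whether the arrays of ZH11 came from separate plants, so p-values measure only the spread between these arrays. LAX1, CRL2 to CRL4 and ROC4 were set aside from the other auxin lists, because their synonyms give genes of other kinds, and LBD6 rose with cold (0.66 in OE and 0.87 in ZH11) while WOX11 was not tested. The procedure was tested on simulated data.

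The replicate numbers pair the OE arrays, because each number is a line. Over the tested probe sets the differences between replicates in cold and normal arrays had a correlation of 0.12 in OE and -0.02 in ZH11. Blocked fits were alternatives, as were other pseudocounts, scalings, filters, probe set averaging and leaving out each array. The test of the OE lines was added after the results were seen.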

Additional observations from a re-analysis of the deposited data

How the results depend on the processing

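Of 59 member results given with a call or as the nearest to one, 0 changed sign in the 19 alternatives and 45 kept their side of the threshold or passed it. Centring on the tested probe sets was chosen after seeing the data. When 1 array was left out, higher and lower members numbered 17 to 18 and 4 to 4 for cold in OE, 17 to 21 and 3 to 4 for cold in ZH11, 0 to 1 and 6 to 12 for OE against ZH11 after cold, 0 to 1 and 0 to 3 before cold, and 0 to 0 and 0 to 1 for the interaction. After cold, averaging all probe sets of a gene gave 1 higher member. Before cold, a pseudocount of 64 gave 0 higher members. The interaction gave 1 lower member after quantile normalization, with a filter at the 60th percentile and with averaged probe sets, in each case IAA13. With a replicate block over all arrays 8 members were lower in OE after cold, IAA8 (adjusted p = 0.0567) and IAA10 (0.0711) losing their calls. The replicate block within the OE lines gave 18 higher and 4 lower members for cold in OE, 21 and 4 for cold in ZH11, 10 lower after cold, and changed no call other than that of PIN5A. Besides, IAA10 lost its call with a pseudocount of 64, with array medians centred, without a filter and without a trend (0.0502 to 0.092). Signals near the filter limit IAA14, IAA26, GH3-2 and GH3-4, whose sizes depend on the pseudocount.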

Other observations

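The mean profile of the 10 members lower in OE after cold was compared over the 8 arrays with 2140 other genes that have a name. The genes most like it were CASPL4B4 (Pearson r = 0.98), AO-2 (0.97), GL2-2 (0.96), NBP (0.96) and BGLU36 (0.96). These values are a description over 8 arrays in 4 groups, and any gene with a similar order of group means scores high.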
